A study of Mus musculus with 6 samples.

Results

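The cytosolic ribosomal protein genes, which encode the proteins of the small and large subunits of the ribosome, were followed in regulatory T cells of the mouse colon (Treg cells, a class of CD4 T cell defined by the transcription factor Foxp3). Members were taken by symbol: Rpl or Rps, a number and at most one letter, together with Rpsa, Rplp0, Rplp1 and Rplp2, with symbols ending in -ps, those of processed pseudogenes, left out. This gave 83 of 32090 genes in the deposited count table, of which 78 had enough counts to be tested. The rule goes by symbol alone, and RefSeq annotates the members Rps4l and Rpl6l as pseudogenes. The 3 KO libraries came from mice with floxed alleles of Il23r (interleukin-23 receptor) and a YFP-tagged Cre in Foxp3 (Il23rflflFoxp3YFP-Cre). The 3 WT libraries came from mice with that Cre alone (Foxp3YFP-Cre), so Cre and YFP were shared by both groups. All mice were untreated C57/BL6, and the sorted cells were live CD45+CD4+Foxp3+ cells of the colonic lamina propria. Each library was a pool of cells from at least 5 mice, so the spread between libraries was a spread between pools. This Cre is meant to restrict deletion to cells that express Foxp3, and a count per gene does not show the loss of a floxed exon.

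Ribosomal proteins are for the most part made in equal numbers for assembly with ribosomal RNA, and their mRNAs are among the most abundant in a cell. Most of these mRNAs start with a run of pyrimidines, the terminal oligopyrimidine (TOP) motif, through which the mTOR pathway sets their translation, often with little change in mRNA level. T cells make more ribosomes when they are activated and divide. The counts describe mRNA abundance and say nothing of translation.

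The annotated starts of 8 members are printed beside the fold changes that follow, to show how far they carry a pyrimidine run. Rps27, Rpl35a, Rpl37a and Rps13 are among the members higher in KO with the smallest p-values, Rps27l has the largest fold change, and Rpl4, Rpl10 and Rpl7a have negative log2 fold changes. Each stretch holds 30 bases before and 30 bases after a start annotated in RefSeq (GRCm38.p6), on the gene's own strand. Where a gene has several windows, the one with the longest run is shown. Capitals mark the longest run of C and T, or the first of them where 2 are equally long, as in Rps27l.
Rps27 (chr3:90213619-90213678, minus strand): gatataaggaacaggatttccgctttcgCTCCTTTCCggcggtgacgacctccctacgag
Rpl35a (chr16:33056452-33056511, plus strand): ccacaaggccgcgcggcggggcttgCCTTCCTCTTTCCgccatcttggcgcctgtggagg
Rpl37a (chr1:72711230-72711289, plus strand): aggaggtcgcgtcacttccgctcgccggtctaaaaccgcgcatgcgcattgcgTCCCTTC
Rps13 (chr7:116334161-116334220, minus strand): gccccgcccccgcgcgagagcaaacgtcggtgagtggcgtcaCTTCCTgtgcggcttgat
Rps27l (chr9:66946056-66946115, plus strand): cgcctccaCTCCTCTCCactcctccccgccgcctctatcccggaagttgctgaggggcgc
Rpl4 (chr9:64173357-64173416, plus strand): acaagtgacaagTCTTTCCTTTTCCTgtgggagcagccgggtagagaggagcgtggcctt
Rpl10 (chrX:74270786-74270845, plus strand): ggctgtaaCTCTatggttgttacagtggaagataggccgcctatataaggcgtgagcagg
Rpl7a (chr2:26910777-26910836, plus strand): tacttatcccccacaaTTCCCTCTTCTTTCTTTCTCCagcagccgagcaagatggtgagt
The run was 9 bases long in Rps27, 13 in Rpl35a and 21 in Rpl7a, and in these it spans the annotated start. In Rps27l, with 9 bases, and Rpl4, with 14, it lies before that start and so outside the mRNA as annotated. Rpl37a, Rps13 and Rpl10 had no run over 7, 6 and 4 bases in their windows.

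Among the libraries, Il23r was measured at 18.4, 4.99 and 8.97 CPM in the libraries labelled KO1, KO2 and KO3, against 19.4, 38.3 and 13.6 CPM in WT1, WT2 and WT3 (log2 fold change -1.14, adjusted p = 0.573, edgeR's quasi-likelihood test). CPM, the usual measure of counts relative to library size, were scaled by TMM factors. The library labelled KO1 lay inside the WT range of Il23r, so its label rests on the submitters' word for this gene. Total estimated counts were between 16171278 and 20654340 in KO and between 9680503 and 18734331 in WT. RNA integrity numbers were between 7.9 and 8.8 except for WT2, at 5. The library labelled KO1 and WT1 shared flow-sort batch A, WT2 and WT3 shared batch B, and KO2 and KO3 had batches C and D. KO2 and KO3 were the most alike pair, with a correlation of 0.974 across genes, against 0.832 to 0.912 for the other pairs. Foxp3 was present at 1126 to 1603 CPM in KO and at 567 to 1384 CPM in WT, and none of the 10 Treg and CD4 T cell markers was called or at 0. Xist, the RNA of the inactive X, was at 1182 to 3472 CPM in KO and at 0 to 0.284 CPM in WT. Ddx3y, on the Y chromosome, was at 58.0, 0.122 and 27.0 CPM in the libraries labelled KO1, KO2 and KO3, against 113, 232 and 115 CPM in WT1, WT2 and WT3. RNA of both sexes was thus present in the library labelled KO1 and in KO3, and the sex makeup of the pools differed between the groups, so that its part and that of genotype cannot be told apart. If the libraries do not keep strand, the reads of Xist cannot be told apart from those of the antisense partner Tsix. In sorted bulk RNA, fewer cells of a type and less RNA per cell cannot be told apart either.

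Ribosomal protein mRNAs made up a larger share of the counts in KO on average, with one WT library far below the rest. Members held 3.24%, 3.56% and 3.55% of all counts in the libraries labelled KO1, KO2 and KO3, against 2.88%, 1.63% and 3.19% in WT1, WT2 and WT3. All 3 KO libraries lay above all 3 WT libraries, but the library labelled KO1 and WT3 were close, and most of the distance between the groups lay in WT2. The mean share was 3.45% ± 0.182 in KO and 2.56% ± 0.825 in WT (SD, n = 3 each), a ratio of 1.35. Without WT2 the ratio was 1.14. The 95% Wilson interval of the share was 3.23% to 3.25% in the library labelled KO1 and 1.62% to 1.64% in WT2. Such intervals cover counting error only, because reads amplified without molecular identifiers cannot be taken as separate molecules.

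Across the 78 tested members, 72 had a log2 fold change above 0, KO over WT, where the background over all 12557 genes tested was 47.4%. Their median was 0.46, against -0.04 over all genes, with a median standard error of 0.27. The direction of the median was kept under every scaling tried. By edgeR's quasi-likelihood test 0 members passed an adjusted p of 0.05 as higher in KO (background 0.0159%) and 0 as lower (background 0.00796%, or 0.0239% in either direction), and the smallest adjusted p was 0.433. At an unadjusted p of 0.05, edgeR placed 24 members higher in KO (30.8% of the members; background 5.02%) and 0 lower (background 4.35%). DESeq2 also called 0 members higher (background 1.21%) and 0 lower (background 0.673%, or 1.89% in either direction), as did limma-voom. In the authors' deposited table no member passed as higher (background 1.46%) or as lower (background 0.948%), the smallest adjusted p was 0.0799 for Rps27l, and 70 of 78 log2 fold changes lay above 0 (background 49.3%). The single genes thus had no call, and the count of positive fold changes is a description, since members measured in the same 6 libraries are not independent.

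**Figure D1:**
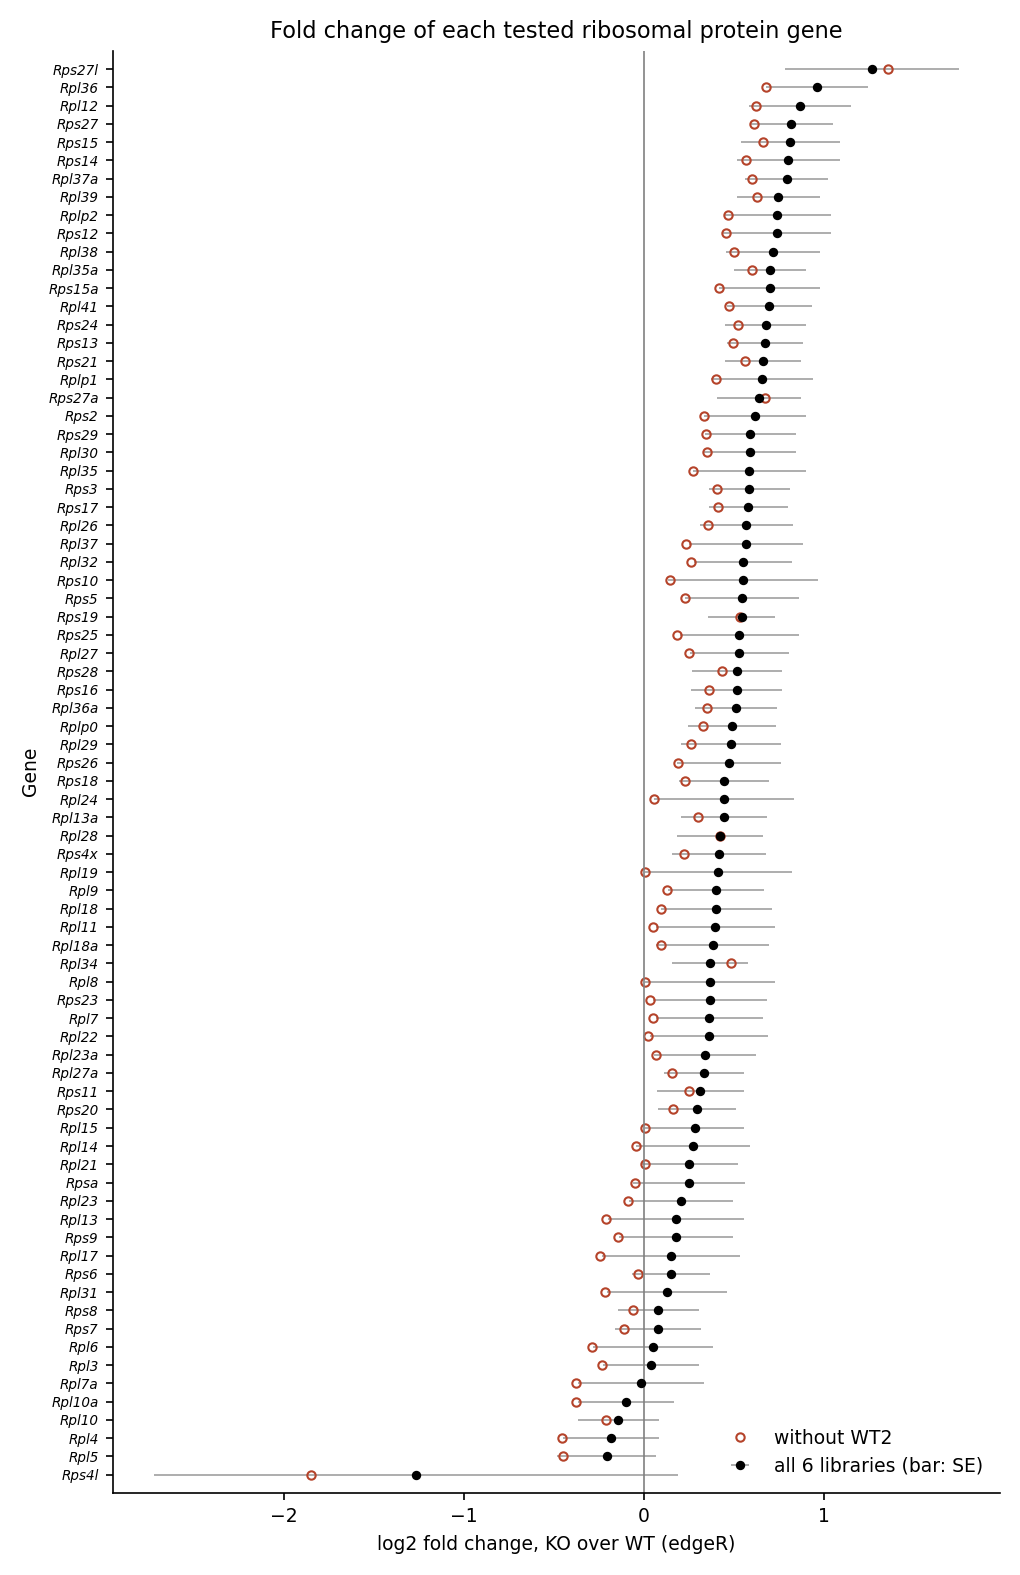
Log2 fold change of KO over WT for the 78 tested members from edgeR, with all 6 libraries (filled points, bars are the standard error) and without WT2 (open points). With all libraries 72 members lie above 0 and the median is 0.46, and without WT2 60 lie above 0 and the median is 0.23.

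In 27 members the 3 KO values all lay above the 3 WT values (34.6% of the members; background 9.68% of all genes), and in 0 members all below (background 8.01%). WT2 was the lowest of the 6 libraries in 70 of 78 members, against 26.7% of all genes. KO2 was the highest in 45 members (14.1% of all genes) and WT3 in 21 (19.6% of all genes). The median member lay 0.33, 0.68 and 0.61 log2 units above the WT mean in the libraries labelled KO1, KO2 and KO3, against 0.18, -0.58 and 0.40 in WT1, WT2 and WT3. WT3 thus lay above the library labelled KO1 for the median member.

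**Figure D2:**
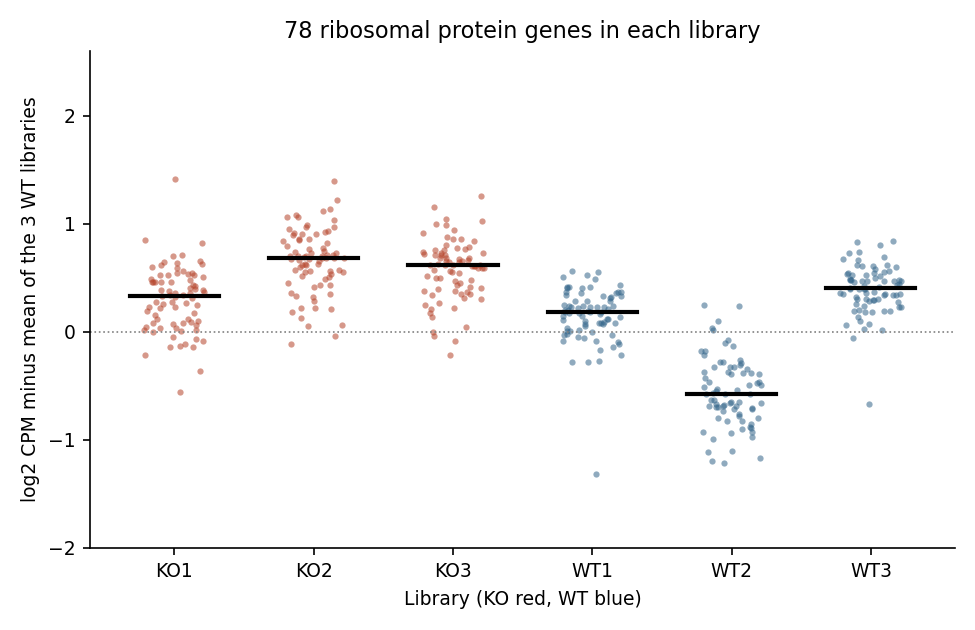
Each point is one of 78 members in one library, as log2 CPM minus the mean of the 3 WT libraries, and the black bar is the median of the library (KO red, WT blue). WT2 sits lowest with a median of -0.58, WT3 at 0.40 lies between the library labelled KO1 at 0.33 and KO3 at 0.61, and 2 points of Rps4l fall outside the axis.

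Set against each WT library in turn, the members stood differently. All 3 KO values lay above WT2 in 75 of 78 members (37.6% of all genes). They lay above WT1 in 52 members (32% of all genes). They lay above WT3 in 28 members, or 35.9%, close to the 34.2% of all genes, and the median distance of the KO mean from WT3 was 0.11 log2 units. Against WT1 that distance was 0.37, and against WT2 it was 1.10. Without WT2, 60 of 78 members had a positive log2 fold change (background 49.7%), and the median was 0.23. At an unadjusted p of 0.05, edgeR then placed 14 members higher in KO (background 6.26%), and Rpl4 and Rpl10a lower. The share of all genes placed lower without WT2 was not counted, and with all libraries it was 4.35%. After adjustment edgeR again called 0. With RNA integrity as a covariate, 57 members were positive and the median was 0.22. RNA integrity was low in WT2 alone, so this fit makes nearly the same adjustment as leaving WT2 out. Without WT3 the median was 0.67. Within flow-sort batch A, the only batch with both genotypes, the library labelled KO1 exceeded WT1 in 53 of 78 members (background 50.9%), with a median difference of 0.14 and no replicate.

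WT2 also differed from the other libraries in other RNA classes. The 18S ribosomal RNA entry of the table took 13.9%, 21.5% and 20.3% of the counts in the libraries labelled KO1, KO2 and KO3, against 14.2%, 9.86% and 19.2% in WT1, WT2 and WT3. Mitochondrially encoded genes took 3.11%, 4.08% and 3.13% in KO and 3.07%, 7.39% and 3.87% in WT, in the same order. WT2 thus had the lowest 18S share and the highest mitochondrial share. Counted outside the 18S entry, the ratio of the members' mean share was 1.4, and outside mitochondrially encoded genes it was 1.33. The part of RNA integrity and of these shares in the members' difference was not tested.

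The small subunit is the part of the ribosome that decodes the mRNA. Of its 32 tested members 31 were positive in log2 fold change, the median being 0.54 over all libraries and 0.34 without WT2. Of the 46 tested members of the large subunit, which forms the peptide bond, 41 were positive, with a median of 0.40 and, without WT2, 0.11. The difference between the subunits was not tested.

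Rps27, a zinc-finger protein of the small subunit, had the smallest p-value of all members. It was measured at 691, 929 and 798.5 CPM in the libraries labelled KO1, KO2 and KO3, against 525, 323 and 524 CPM in WT1, WT2 and WT3. The groups did not overlap, the lowest KO library standing above WT1, and WT2 was the lowest of all. The log2 fold change was 0.82 with a standard error of 0.23 (adjusted p = 0.433 by edgeR), and without WT2 it was 0.61. Rps13, a small-subunit protein, was measured at 543, 707 and 664 CPM in the libraries labelled KO1, KO2 and KO3, against 447, 304 and 451 CPM in WT1, WT2 and WT3. Here too the groups did not overlap, and WT1 and WT3 were nearly equal. Its log2 fold change was 0.67 (standard error 0.21, adjusted p = 0.455 by edgeR).

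Large-subunit genes completed the members with the smallest p-values. Rpl36 showed the largest fold change among them, at 399, 525 and 464 CPM in the libraries labelled KO1, KO2 and KO3, against 274, 139 and 301 CPM in WT1, WT2 and WT3. Its log2 fold change was 0.96 (standard error 0.28, adjusted p = 0.435 by edgeR), and 0.68 without WT2. The groups did not overlap, and WT2 had less than every other library. Rpl35a, whose human gene is mutated in some families with Diamond-Blackfan anaemia, was at 221, 275 and 226 CPM in the libraries labelled KO1, KO2 and KO3, against 142, 130 and 172 CPM in WT1, WT2 and WT3. Within batch A its log2 difference was 0.63, close to its log2 fold change of 0.70 over all libraries (adjusted p = 0.433 by edgeR). Rpl37a, another zinc-finger protein, was at 611, 874 and 773 CPM in the libraries labelled KO1, KO2 and KO3, against 502, 317 and 485 CPM in WT1, WT2 and WT3. Its log2 fold change was 0.79 (adjusted p = 0.435 by edgeR). Its groups did not overlap. Rpl39, a very small protein of the peptide exit tunnel encoded on the X chromosome, was at 288, 463 and 376 CPM in the libraries labelled KO1, KO2 and KO3, against 212, 190 and 269 CPM in WT1, WT2 and WT3. The library labelled KO1 and WT3 were nearest to each other, and the groups did not overlap. For Rpl39 the log2 fold change was 0.75 (adjusted p = 0.436 by edgeR).

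Only 6 members had a negative log2 fold change over all libraries, and the groups overlapped in each. Rpl5, which joins the ribosome with Rpl11 and the smallest ribosomal RNA and binds Mdm2 when free, was at 78.7, 78.2 and 73.1 CPM in the libraries labelled KO1, KO2 and KO3, against 89.0, 58.1 and 118 CPM in WT1, WT2 and WT3. The KO libraries were nearly equal and lay between WT2 and WT1. Its log2 fold change was -0.21 (standard error 0.28, adjusted p = 0.847 by edgeR). Rpl4, which lines the peptide exit tunnel, was at 732, 825 and 798 CPM in the libraries labelled KO1, KO2 and KO3, against 965, 540 and 1174 CPM in WT1, WT2 and WT3. WT1 and WT3 stood above every KO library and WT2 below, giving -0.19 over all libraries and -0.46 without WT2 (log2, adjusted p = 0.862 and 0.389 by edgeR). Rpl7a and Rpl10a, both of the large subunit, followed the same order, WT2 being lowest. The log2 fold change was -0.02 for Rpl7a and -0.10 for Rpl10a with all libraries, and -0.38 for both without WT2. Rpl10, encoded on the X chromosome and added late in the assembly of the large subunit, was at 323, 518 and 462 CPM in the libraries labelled KO1, KO2 and KO3, against 430, 441 and 566 CPM in WT1, WT2 and WT3 (log2 fold change -0.14, adjusted p = 0.876 by edgeR). Here the library labelled KO1 was the lowest and WT2 was not. The remaining gene, Rps4l, rested on a single library and is given with its partner gene.

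The ribosomal stalk, through which the elongation factors are recruited, is built from Rplp0, Rplp1 and Rplp2. Rplp1 was at 690, 871 and 836 CPM in the libraries labelled KO1, KO2 and KO3, against 471, 320.5 and 731 CPM in WT1, WT2 and WT3. Rplp2 showed the same order of libraries within WT. In both, WT3 exceeded the library labelled KO1, so the groups overlapped. The log2 fold change was 0.65 for Rplp1, 0.74 for Rplp2 and 0.49 for Rplp0 (adjusted p = 0.522, 0.505 and 0.569 by edgeR). Without WT2 these were 0.40, 0.47 and 0.32, and without WT3 they were 1.02, 1.11 and 0.66. Rpl12, which sits at the base of the stalk, was at 92.3, 132 and 122 CPM in the libraries labelled KO1, KO2 and KO3, against 76.8, 40.9 and 71.9 CPM in WT1, WT2 and WT3. Its groups did not overlap and its log2 fold change of 0.87 was among the largest (adjusted p = 0.474 by edgeR). Rpsa, the small-subunit protein also known as the laminin receptor, had a log2 fold change of 0.25 (adjusted p = 0.833 by edgeR), which was -0.05 without WT2. Rpl3, which reaches towards the peptidyl transferase centre, had 0.04 (adjusted p = 0.976 by edgeR) and -0.24 without WT2.

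The KO libraries, and not the WT libraries, carried Xist, and 4 tested members lie on the X chromosome. Their median log2 fold change was 0.46, and that of the 74 autosomal members was 0.46 as well. Beside Rpl39 and Rpl10, these were Rpl36a at 0.51 and Rps4x at 0.42 (log2 fold change, adjusted p = 0.538 and 0.635 by edgeR). Rps4x was at 769, 1057 and 931 CPM in the libraries labelled KO1, KO2 and KO3, against 587, 505.5 and 973 CPM in WT1, WT2 and WT3, with WT3 inside the KO range. Its log2 fold change was 0.22 without WT2 and 0.75 without WT3. The X-linked members thus ranged from -0.14 to 0.75.

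The log2 fold change of the members moved with the length of their transcripts, taken from a single annotated transcript of each gene. Another choice of transcript would change some of these lengths. Members had short transcripts, with a median of 705 bases against 2777 over the genes tested, and ranged from 271 bases in Rps28 to 3706 in Rps20. The 26 shortest members, up to 577 bases, were all positive with a median of 0.59. The 26 in the middle had a median of 0.42, and the 26 longest, from 851 bases, a median of 0.35. Without WT2 these medians were 0.42, 0.16 and 0.04. In batch A the library labelled KO1 minus WT1 gave 0.30, 0.12 and 0.00. The medians ran in the same order by length in each case. The 3 comparisons share the library labelled KO1 and WT1, so they are not independent.

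**Figure D3:**
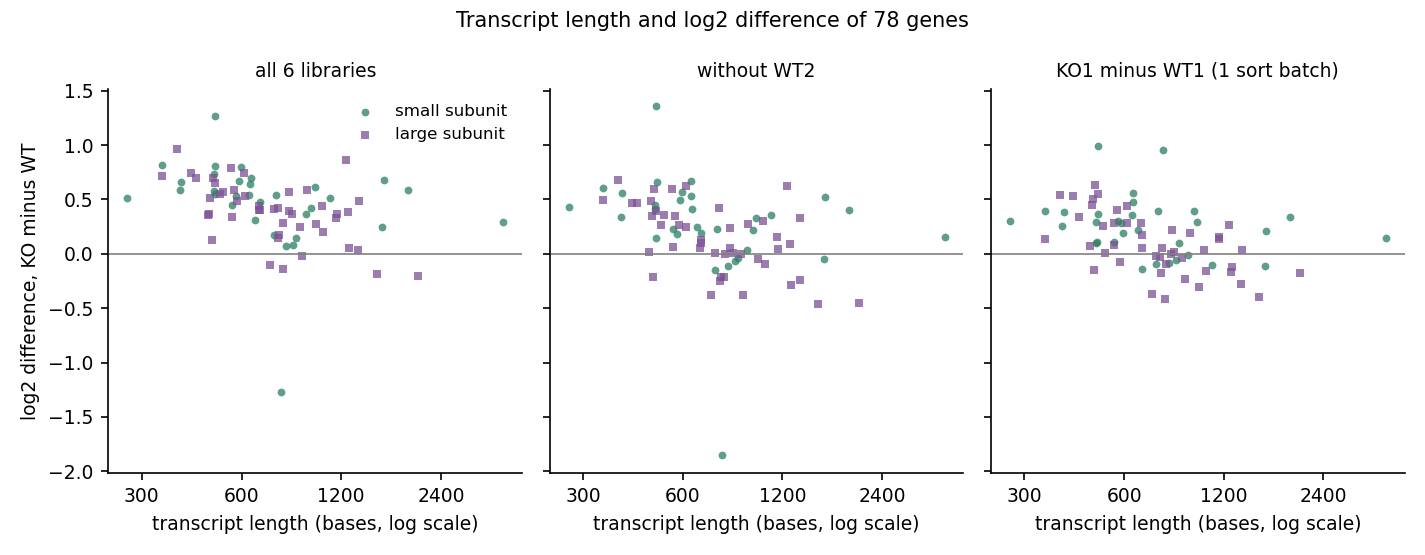
Log2 difference of KO and WT against transcript length (log scale) for the 78 tested members, from all 6 libraries, without WT2, and as the library labelled KO1 minus WT1 within one sort batch (green small subunit, purple large subunit). Shorter transcripts lie higher in all 3 panels, with Spearman's rho of -0.52, -0.51 and -0.52.

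Spearman's rho between transcript length and log2 fold change across the 78 members was -0.523 over all libraries, -0.511 without WT2 and -0.518 in batch A. Across the 11873 tested genes with a length it was -0.165 over all libraries and -0.106 without WT2. These points share the same libraries and are given as a description. GC content showed no such order among the members, with a rho of 0.00878, while over all genes it was 0.263. The 837 other tested genes of up to 944 bases had a median log2 fold change of 0.25, with 62.4% positive, and a median of 0.16 without WT2. By contrast, the 2005 non-members at least as abundant as the lowest canonical member had a median of -0.12, with 696 positive. When the trend on length over all genes was subtracted, 63 of 78 members were positive and their median was 0.24. The trend on GC content left a median of 0.43. Whether length, RNA integrity or genotype set the members' difference was not tested.

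Per kilobase of transcript, the members were of uneven abundance. Over all 6 libraries the median of the 76 canonical members, those other than Rps27l and Rps4l, was 478 CPM per kb, with quartiles of 309 and 748. The highest was 52.3 times the lowest. Rpl41, the smallest ribosomal protein, was highest at 2610 ± 330.0 CPM per kb in KO and 1610 ± 448 in WT (SD, n = 3 each). It was followed by Rps27 at 2340 ± 346 in KO and 1330 ± 336 in WT, Rplp2 at 1920 ± 304 and 1150 ± 486, Rplp1 at 1600 ± 192 and 1020 ± 416, and Rps10 at 1420 ± 238 and 971 ± 569 CPM per kb, KO before WT in each. The 5 lie within 1 SD of their neighbours in this order, so their ranks are not separated.

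At the low end of this scale, Rps20 had 88.3 ± 13.4 CPM per kb in KO and 71.9 ± 15.9 in WT, on an annotated transcript far longer than that of any other member. Rpl12 had 92.8 ± 16.6 in KO and 50.9 ± 15.7 in WT, and Rpl5 had 37.5 ± 1.52 in KO and 43.3 ± 14.8 in WT. The paralogs were lower still, Rps27l at 36.1 ± 3.53 in KO and 15 ± 5.45 in WT, and Rps4l at 2.03 ± 1.07 in KO and 4.86 ± 8 in WT, all in CPM per kb (SD, n = 3). Of the 77 steps between neighbours in the order, 73 were within 1 SD of the levels over libraries. The order of the 76 canonical members was nearly the same in KO and WT, with Spearman's rho of 0.957 across genes. A level per length depends on which transcript is taken, and reads shared with processed pseudogenes can be assigned to either copy.

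**Figure D4:**
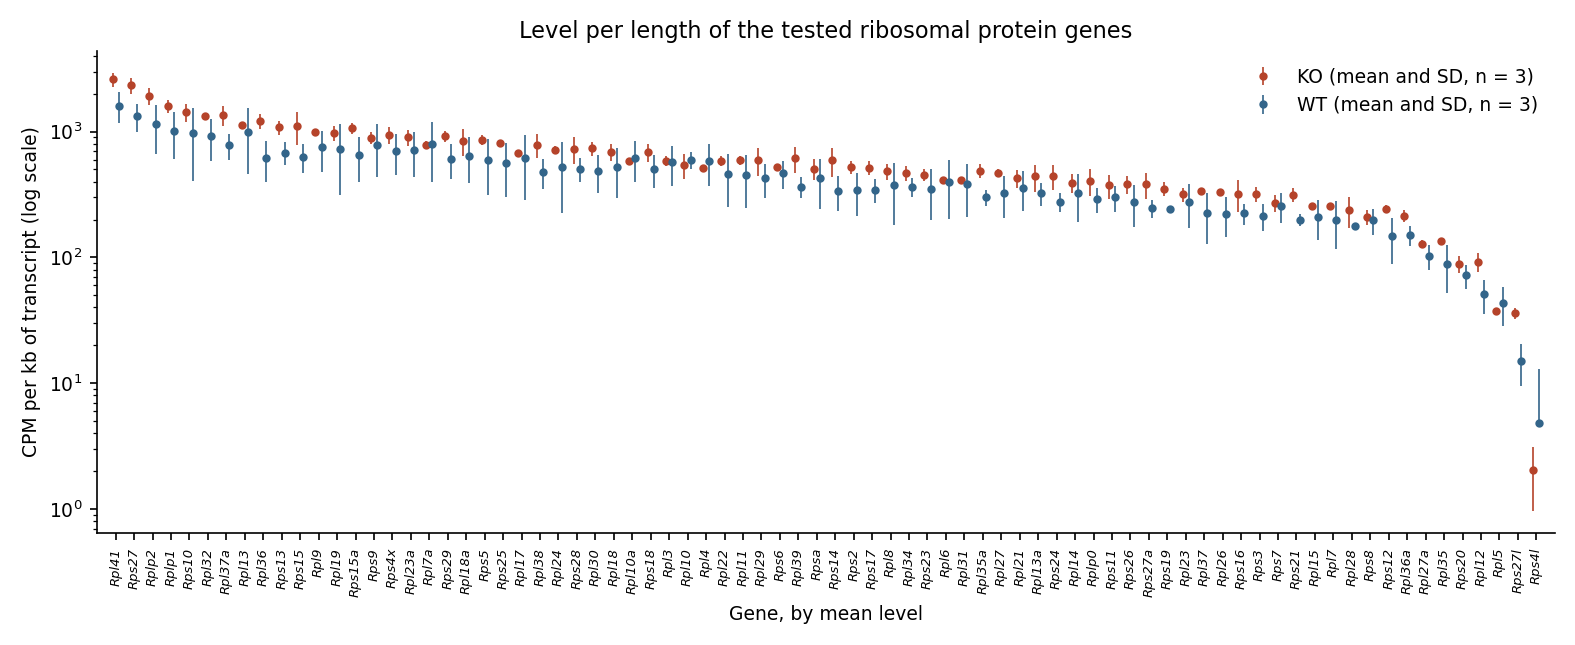
Mean level per kilobase of transcript (CPM per kb, log scale) of the 78 tested members, KO red and WT blue, with bars of 1 SD (n = 3 each; no lower bar where the SD exceeds the mean, as for Rps4l in WT). Members are ordered by their mean over all 6 libraries, from Rpl41 at 2110 to Rps4l at 3.45 CPM per kb.

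Some members have close paralogs whose use differs between tissues, and 8 such pairs were looked up. In each, the paralog's counts were set against its partner's within a library, which needs no scaling. Enough counts for a test were present in 5 pairs, and with 3 libraries a group the smallest p that an exact two-sided permutation test can give is 0.1. Rpl3l, which is restricted to muscle, had 1 count in the library labelled KO1 and 0 elsewhere. Rpl39l, known from male germ cells, had 0, 3 and 6 counts in the libraries labelled KO1, KO2 and KO3 and 0 in WT, and Rpl10l, also of male germ cells, had 0 in all 6. Rpl6l and Rpl32l were at 0 as well, and these 5 genes are the members that were not tested.

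Rps27l, which is known as a target of p53, had the largest fold change of all members. It was at 19.2, 18.9 and 16.0 CPM in the libraries labelled KO1, KO2 and KO3, against 9.62, 8.43 and 4.43 CPM in WT1, WT2 and WT3. The groups did not overlap, and WT2 was not the lowest. The log2 fold change was 1.27 with a standard error of 0.48 (adjusted p = 0.491 by edgeR), and 1.36 without WT2. As a percentage of Rps27 counts it was 2.78%, 2.03% and 2.00% in the libraries labelled KO1, KO2 and KO3, against 1.83%, 2.61% and 0.845% in WT1, WT2 and WT3. In this ratio WT2 lay inside the KO range, and the mean log2 ratio differed by 0.49, KO minus WT (exact permutation p = 0.4, adjusted over the 5 pairs 0.833). This difference was 0.03 without WT3 and 0.84 without WT2.

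Rpl22l1 ran the other way relative to Rpl22, a large-subunit protein needed for the development of alpha-beta T cells in mice. Its counts were 19.1%, 22.9% and 22.3% of those of Rpl22 in the libraries labelled KO1, KO2 and KO3, against 25.3%, 56.2% and 26.1% in WT1, WT2 and WT3. All 3 KO ratios lay below all 3 WT ratios, with WT2 far above the rest, and the mean log2 ratio differed by -0.64 (exact permutation p = 0.1, the smallest possible, adjusted over the 5 pairs 0.5). Without WT2 the difference was -0.26. Rpl22l1 itself was at 60.0 ± 9.73 CPM in KO and 66.6 ± 7.97 CPM in WT (SD, n = 3 each), while Rpl22 was at 268, 307 and 261 CPM in the libraries labelled KO1, KO2 and KO3, against 256, 106 and 289 CPM in WT1, WT2 and WT3. Rpl22 thus had its one low value in WT2.

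Rps4l, an autosomal relative of Rps4x that RefSeq annotates as a transcribed pseudogene, had 15, 30 and 37 counts in the libraries labelled KO1, KO2 and KO3, against 3, 1 and 196 counts in WT1, WT2 and WT3. WT3 alone stood high, and the log2 fold change of -1.27 (standard error 1.46, adjusted p = 0.815 by edgeR) was 2.99 without it (adjusted p = 0.427). The mean log2 ratio of Rps4l to Rps4x differed by 0.34 (exact permutation p = 0.9). For Rpl7l1 against Rpl7 the difference was 0.03 (exact permutation p = 0.9), and for Rpl36al against Rpl36a it was -0.17 (exact permutation p = 0.5, adjusted 0.833). Rpl36al was about as abundant as Rpl36a, at 83.1%, 126% and 124% of it in the libraries labelled KO1, KO2 and KO3, against 130%, 127% and 113% in WT1, WT2 and WT3. These 2 share a nearly identical protein, and reads could be split between them.

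**Figure D5:**
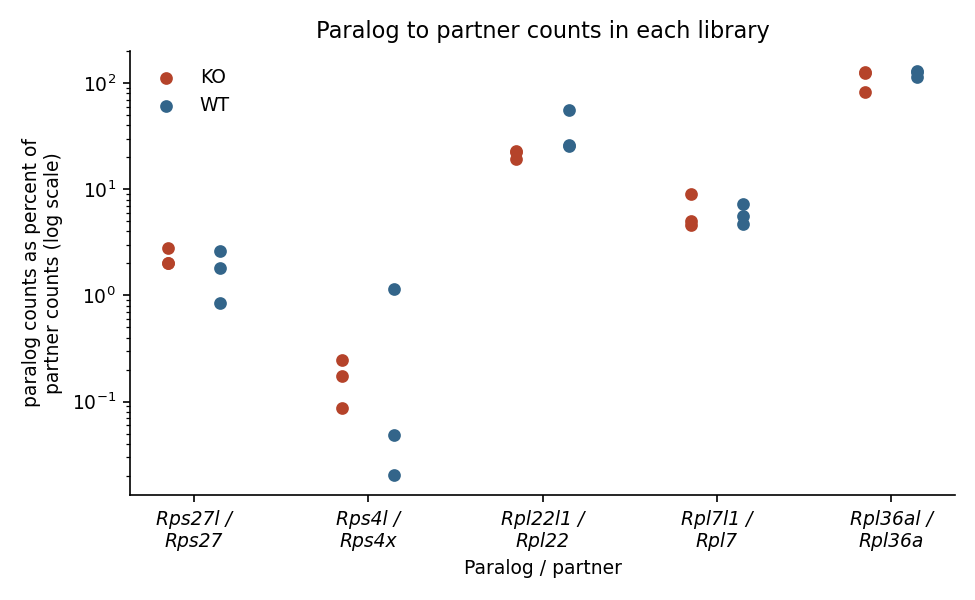
Counts of each paralog as a percentage of its partner's counts (log scale) in the 3 KO libraries (red) and the 3 WT libraries (blue), for the 5 pairs with enough counts. For Rpl22l1 the KO values of 19.1 to 22.9% lie below the WT values of 25.3 to 56.2%, and for Rps4l the value of 1.14% belongs to WT3.

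Processed pseudogenes of the members were abundant in the table and are near copies of them. Of 226 such entries 126 had any count, and together they took 4.64, 5.13 and 5.26 counts per 100 counts of members in the libraries labelled KO1, KO2 and KO3, against 5.12, 4.39 and 4.61 in WT1, WT2 and WT3. The groups overlapped in this ratio. Of the 24 tested pseudogenes 19 were positive in log2 fold change, the median being 0.45, and edgeR called 0. Since the counts were estimated per transcript from reads that fit several copies, the level of each single member is uncertain by what its copies hold.

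Cytosolic ribosomal proteins whose symbols fall outside the rule lay near the members. Of 6 tested, 5 were positive in log2 fold change, the median being 0.48 and 0.29 without WT2. Fau, which encodes a small-subunit protein fused to a ubiquitin-like one, was at 390, 567 and 499 CPM in the libraries labelled KO1, KO2 and KO3, against 296, 275 and 328 CPM in WT1, WT2 and WT3. Its groups did not overlap, and WT2 was close to WT1. For Fau the log2 fold change was 0.70 (standard error 0.20, adjusted p = 0.433 by edgeR). Rps27rt, a retrotransposed copy of Rps27, had 0.71 (adjusted p = 0.491 by edgeR). Rack1, a scaffold on the small subunit, had 0.31 (adjusted p = 0.737 by edgeR).

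Lists of the machinery around the ribosome had lower medians than the members, a difference that was not tested. In these lists of translation, ribosome assembly and mitochondrial genes edgeR called 0 genes. The authors' deposited table called 1 elongation, 1 initiation and 1 ribosome biogenesis factor (adjusted p = 0.019, 0.0125 and 0.0316). Over all its genes 1.46% passed as higher and 0.948% as lower. Among translation elongation factors, 6 of 8 tested were positive, at a median log2 fold change of 0.17, or 0.00 without WT2, and Eef1a1 had -0.01. Among other genes with TOP mRNAs 8 of 17 were positive with a median of -0.01. One of these, Pabpc1, the cytoplasmic poly(A)-binding protein, was at 1260, 1600 and 1530 CPM in the libraries labelled KO1, KO2 and KO3, against 1890, 2050 and 2020 CPM in WT1, WT2 and WT3. Its groups did not overlap and WT was the higher one, with a log2 fold change of -0.45 (adjusted p = 0.495 by edgeR). Of the initiation factors 15 of 29 were positive, with a median of 0.02, and without WT2 9 were, with a median of -0.09.

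Of the ribosome biogenesis factors, 18 of 47 were positive, at a median log2 fold change of -0.13. Ltv1, which accompanies the maturing small subunit, had -0.83 (adjusted p = 0.46 by edgeR), at 27.7, 26.8 and 31.2 CPM in the libraries labelled KO1, KO2 and KO3, against 58.7, 42.7 and 50.8 CPM in WT1, WT2 and WT3. RNA polymerase I and its factors, which transcribe ribosomal RNA, had 7 of 14 positive with a median of 0.00. Regulators of TOP mRNA translation and of ribosomal protein genes had 8 of 22 positive with a median of -0.09. Without WT2 11 of them were positive, and the median was 0.01. Among them Akt1, a kinase upstream of mTOR, was at 43.4, 46.2 and 50.5 CPM in the libraries labelled KO1, KO2 and KO3, against 19.4, 15.4 and 30.8 CPM in WT1, WT2 and WT3. Its groups did not overlap, and its log2 fold change was 1.09 (adjusted p = 0.436 by edgeR). Mtor itself had -0.60 and Tsc2, which restrains mTOR, had 0.75 (adjusted p = 0.528 and 0.527 by edgeR).

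Genes that link free ribosomal proteins to p53 had 3 of 8 positive with a median of -0.09, and ribosome quality control genes had 5 of 13 positive with a median of -0.21. Ribosomal proteins of the mitochondrion, which belong to a separate ribosome, had 45 of 78 positive with a median of 0.16, or 0.07 without WT2. The 13 mitochondrially encoded genes had 1 positive and a median of -0.38, which was -0.03 without WT2. Their negative median thus came with WT2, the library with the highest mitochondrial share.

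Markers of other cell types were present beside the members. Of 25 tested macrophage and dendritic cell markers 24 were positive, the median log2 fold change being 0.88, or 0.63 without WT2. Of these, edgeR called 0 and DESeq2 called 1 as higher (background 1.21%). The authors' deposited table called 2 (smallest adjusted p = 0.0173), where 1.46% of all its genes passed as higher and 0.948% as lower. Within batch A all 25 were higher in the library labelled KO1 than in WT1 (background 50.9%), with a median log2 difference of 1.45 and no replicate. Their summed level was 3740, 3300 and 2510 CPM in the libraries labelled KO1, KO2 and KO3, against 1970, 2320 and 3020 CPM in WT1, WT2 and WT3. Every one of the 26 had counts in some library. The sum was highest in the library labelled KO1 and, within WT, in WT3. Of 15 tested epithelial and goblet cell markers 12 were positive, with summed levels of 75 to 191 CPM in KO and 31.4 to 71.7 CPM in WT. One of these, Fcgbp, was called as higher in KO (adjusted p = 0.0169 by edgeR; background 0.0159%). It was at 14.3, 47.0 and 40.2 CPM in the libraries labelled KO1, KO2 and KO3. In WT1, WT2 and WT3 it was at 0, 0.103 and 0 CPM. Fcgbp thus passed the filter of the test through the KO libraries alone, which limits its call. DESeq2 called 3 of the epithelial markers as higher (background 1.21%), and the authors' deposited table called 3. Cdx2 was at 0 throughout. B and plasma cell markers had 3 of 10 positive and summed to 3340 to 3860 CPM in KO and 2640 to 10100 CPM in WT. Red cell markers summed to 0.267 to 3.04 CPM in KO and 1.32 to 5.56 CPM in WT. The part of other cells in the members' difference was not tested.

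Short sequence motifs were counted in the promoters of the members and in all others, with no test of the difference. Windows of 250 bases before to 50 bases after an annotated start were found for 56 of the 76 canonical members, 66 windows in all. A run of at least 8 C or T on the sense strand within 30 bases of the start was present in 51.5% of them, against 22.9% of all other windows and 22.4% of those of other protein-coding genes. The further motifs were searched on both strands. CTTTCC was present in 50% of the members' windows, against 26.5% of all others and 25.8% of other protein-coding ones. CCGGAAG, the core of ETS family sites, was present in 36.4%, against 8.80% and 11.5%. AAGATGGC, the core of YY1 sites, was present in 10.6%, against 2.73% and 3.03%, and GGGCGG, the core of SP1 sites, in 60.6%, against 35.6% and 46.2%. TATAAA was less frequent among the members' windows, at 9.09%, against 13.6% and 12.6%. The C or T run and CTTTCC can overlap. These matches are letters in a window and not shown to be sites. The 32 genes with such a run near the start had a median log2 fold change of 0.42, and the 24 genes without it 0.52. Among the printed starts, Rps27 with 0.82 and Rpl7a with -0.02 both carried a run, and Rpl37a with 0.79 and Rpl10 with -0.14 did not.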

How the data were processed

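Amplification used the Ovation RNA-Seq System V2 kit and library preparation an NEB kit, per the labels' protocols. The authors deposited estimated counts per gene as whole numbers, taken here as not normalized. Per the submitters' processing notes, the tools were DESeq2 1.34.0, Salmon 1.4.0, fastp 0.20.0 and R 4.1.2, named without role or order. The genome build, annotation and strandedness were not given in the sources used here. The authors' deposited table also gives a mean normalized signal, a log2 fold change (positive where KO is higher) with its standard error, a test score and p-values, per the file headers. Another deposited sheet held 6 columns with names that matched no sample, and these were not used.

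From 32161 entries, those sharing an Entrez ID were summed (71 fewer), giving 32090 genes. The filter was filterByExpr (minimum count 10, minimum total 15), and 12557 genes were tested with edgeR 4.0.16 in R 4.3.3 (quasi-likelihood test, TMM factors, genotype alone, Benjamini-Hochberg, threshold 0.05). Log2 CPM used a prior count of 2. DESeq2 1.42.0 and limma 3.58.1 (voom) served as alternatives, with adjusted p-values missing from DESeq2 kept missing. Exact permutation tests used scipy 1.17.1, and trends on length and GC used lowess in statsmodels 0.14.6 (span 0.3). The test code was checked on simulated counts.

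Levels per length used the shortest principal coding transcript of GENCODE M21, since the RefSeq table planned for this gives gene spans. Where a gene had none, the shortest transcript of GENCODE's basic set was taken, or failing that its shortest transcript. Chromosomes and promoters came from RefSeq (GRCm38.p6). Shares carry 95% Wilson intervals, and folds against a group at 0 use a floor of 3 counts over that group.

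Named members are the 6 with the smallest p in each direction, the 5 highest and 5 lowest per length, X-linked members, Rpsa and the stalk, paralog pairs, the untested, and up to 3 genes per list around them. Promoter examples, Ddx3y and Rps28 (the shortest transcript) were chosen after their values were seen. The members and all lists were chosen with earlier results of these data known.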

Additional observations from a re-analysis of the deposited data

Results flagged for a closer look

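A signal in data outside the tested members was found in 5 processed pseudogenes, each with at least 100 counts over the KO libraries and 0 over the WT libraries. Rps7-ps3, on the X chromosome, had 990 counts in KO (125, 452 and 413 in the libraries labelled KO1, KO2 and KO3) and 0 in WT. Against a floor of 3 counts over the WT group, Rps7-ps3 was at least 228-fold higher in KO, a size that follows in part from how these entries were chosen. Its adjusted p was 0.145 by edgeR and 8.27e-10 in the authors' deposited table, which gives 0.161 for Rps13-ps2 and 0.251 for Rpl36a-ps2. These p-values come from the same counts by which the entries were chosen and are no separate support. Rps7-ps3 passed the filter of the test through the KO libraries alone. Rps13-ps2 had 744 counts, 470 in KO2 and 274 in KO3. Rpl36a-ps2 had 303, 119 in KO2 and 184 in KO3. In both the library labelled KO1 was at 0, as was WT. Rps2-ps4 had 139 counts, 138 of them in the library labelled KO1 and 1 in KO3, and Rps2-ps6 had 149, of which 148 were in the library labelled KO1 and 1 in KO3. These 4 did not pass the filter of the test. No entry met the same limits the other way round, with at most 3 counts over KO and at least 100 over WT (0 of 226). These limits were set on counts not scaled for depth, and total counts differed between the libraries. They were 16171278 to 20654340 in KO and 9680503 to 18734331 in WT. The share of all genes that meets the same limits was not counted.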

How the results depend on the processing

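No member was called in either direction under any of the 19 alternatives. The members' median log2 fold change stayed above 0 in all 21 alternatives, at 0.46 as reported and 0.22 to 0.67 in the alternatives: 0.22 with RNA integrity as a covariate, 0.24 with the transcript length trend subtracted, and 0.23 (without WT2) to 0.67 (without WT3) over libraries left out. The number of members whose groups do not overlap was 27 to 51 with a library left out. With all libraries it was 27 (17.7% of all genes). It was 49 without the library labelled KO1 (34.0% of all genes) and 51 without WT3 (30.7%). It was 27 without KO2 (21.1%), without KO3 (20.3%) or without WT1 (33.2%). Without WT2 it was 34 (29.4% of all genes), of which 27 were higher in KO (15.3% of all genes) and the rest lower. The share ratio ran from 1.14 (without WT2) to 1.53 (without WT3). Over all genes, the reported calls were 2 higher and 1 lower. They were 8 higher with no filter, 1 and 0 with the RNA integrity number or with KO2 and KO3 summed, 164 and 91 with DESeq2's Wald test, 0 and 2 with limma-voom, and 1 to 3 and 0 to 1 with a library left out. Rpl7a changed sign with upper-quartile factors (0.01), library size alone (0.01), no filter (0.02), the replicate block (0.13) and voom (0.01), and Rps4l with the block (0.82) and voom (0.66). With the RNA integrity number Rpsa was -0.08 and Rpl3 -0.24. With a library left out, log2 fold changes ran from -0.38 to 0.33 (Rpl7a), -0.38 to 0.13 (Rpl10a), -0.28 to 0.02 (Rpl10), -0.46 to 0.06 (Rpl4), -0.45 to 0.06 (Rpl5), -0.24 to 0.26 (Rpl3), -0.05 to 0.59 (Rpsa) and -1.85 to 2.99 (Rps4l). Log2 ratios ran from -0.68 to 1.94 for Rps4l to Rps4x (-0.08 with offset 2), -0.27 to 0.22 for Rpl7l1 to Rpl7, -0.28 to 0.02 for Rpl36al to Rpl36a, 0.03 to 0.84 for Rps27l to Rps27 and -0.84 to -0.26 for Rpl22l1 to Rpl22. The cause of these changes was not tested. Leaving out 18S and the GC trend were alternatives chosen after seeing the data. Same-numbered libraries did not deviate together (correlations 0.00931, 0.0489 and 0.0258), though the library labelled KO1 and WT1 shared a sort batch. The reported fit took no pairs by number, and 3 libraries a group are too few to exclude pairing. Under the replicate block the members' median was 0.51. Rps4l had under 50 counts in 5 of 6 libraries, which limits its fold change.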
